A study of Rattus norvegicus with 6 samples.

Results

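The clathrin and caveolar endocytosis machinery was followed through 40 genes chosen by symbol, of which 39 had a row among the 33350 gene models of the expression table. Amph had no row of that symbol and is not analysed here. The data are 6 RNA-seq libraries from cells that the labels call PC12, a rat line from an adrenal pheochromocytoma. In EN (3 libraries) the cells had received exosomes, small secreted vesicles, from endothelial cells with high expression of netrin-1 (Ntn1), an axon guidance protein. In EC (3 libraries) the exosomes came from control endothelial cells, so that both groups had received exosomes; cells without exosomes were not analysed here. The labels give no dose, no time and nothing on whether replicates came from separate cultures. The p-values therefore set the difference between groups against the spread among libraries within groups, and that spread may be technical only. Levels are FPKM, reads scaled to gene length and library size. Changes were tested with limma on log2(FPKM + 1), and log2 changes below are EN minus EC on that scale, where low genes appear to change less than they do. The test took in genes that averaged 1 FPKM or more across the libraries, 12198 in all, 36 of them members.

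Clathrin-mediated endocytosis takes up receptors and their ligands through pits that are coated on the cytoplasmic side. Early scaffold proteins mark a site, the AP2 complex joins membrane lipid and cargo to clathrin, the coat of heavy and light chains bends the membrane, dynamin cuts the neck, and the vesicle then sheds its coat. Caveolae are flask-shaped pits of caveolins and cavins, and flotillins mark further membrane domains. Recipient cells are known to take up exosomes in part through such routes. The comparison of EN with EC gives the transcript levels of this machinery in cells that had received either kind of exosome, and holds no measure of uptake.

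The caveolin genes Cav1 and Cav2 and the pit scaffold gene Eps15 were lower in EN, by 1.20-fold, 1.29-fold and 1.29-fold in mean FPKM. The clathrin light chain gene Cltb, the coat-to-actin linker gene Hip1r, the epsin gene Epn1, the recycling gene Ehd1 and the transferrin receptor gene Tfrc were higher in EN, by 1.26-fold, 1.27-fold, 1.18-fold, 1.15-fold and 1.13-fold. The other 28 tested genes did not pass, among them all 5 subunits of AP2, both synaptojanins and both tested dynamins. In all, 5 of 36 tested members were higher and 3 were lower (limma, Benjamini-Hochberg adjusted p under 0.05), or 22.2% of members against 14.4% of all 12198 tested genes. Of all tested genes 7.24% were higher and 7.14% lower. The members' median log2 change was 0.04, against -0.0028 for all tested genes, and their median absolute log2 change was 0.12, against 0.13 for all tested genes. EN and EC values did not overlap in 17 of the 36 members (47.2%), against 37.9% of all tested genes. EN was above EC in 11 and below in 6, against 18.6% and 19.4% of all tested genes. The 8 members past the test are among those 17. These shares are not of genes at like levels, since the lowest tested member averaged 11.4 FPKM and all tested genes reach down to 1 FPKM. With a minimum mean of 5 FPKM, 2022 of 9204 genes passed, a share close to the members' 22.2%. The same 8 members passed there.

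Most calls depended on which libraries were in the fit. Leaving out EC replicate 2, then EC replicate 3, then EN replicate 1, then EN replicate 2 gave 0 higher members each time and 0, 1, 1 and 1 lower members (limma). At an unadjusted p under 0.05 these 4 fits had 6, 6, 6 and 7 higher and 3, 3, 4 and 3 lower members. Without EC replicate 1 there were 4 higher and 3 lower, and without EN replicate 3 there were 4 higher and 5 lower. The 8 log2 changes kept their sign in each fit with 1 library left out, which the lack of overlap between the groups fixes. Over all genes the number past the test moved in the same way, with 1754 in all libraries, 338, 408, 446 and 344 in those 4 fits, 1616 without EC replicate 1 and 2059 without EN replicate 3.

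The EN libraries held 16654025 to 19626012 reads and the EC libraries 15296193 to 16165804, so every EN library was the deeper. Mitochondrial genes took 4.40 to 5.50% of reads in EN and 5.43 to 6.09% in EC. Short gene models (under 1500 bases) relative to long ones (over 4000 bases) stood at 0.070, 0.036 and -0.028 in EN replicates 1 to 3, against -0.00032, -0.029 and -0.049 in EC replicates 1 to 3, as mean log2 deviations, so EN replicate 3 lay among the EC libraries. The labelled cell type was checked against chromaffin markers. Of 11 chromaffin genes, 3 were at 0 in every library, and the 11 summed to 6.27 to 6.47 FPKM in EN and 6.45 to 7.44 in EC, so the libraries are called PC12 by label only. Of 10 Schwann and glial markers, 5 averaged at least 10 FPKM.

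**Figure D1:**
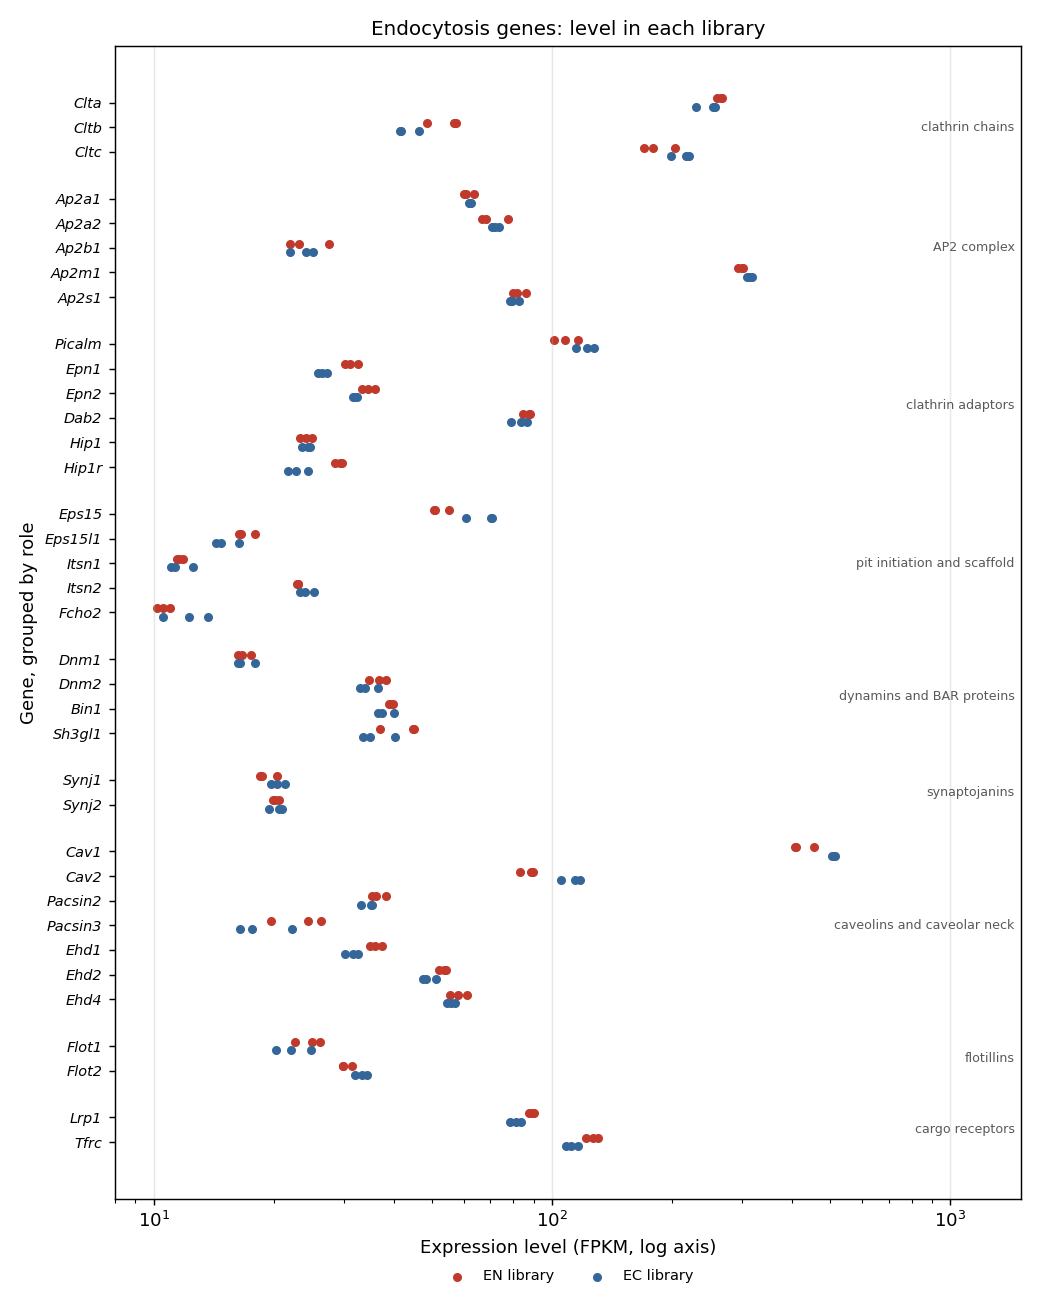
Level of each of the 36 tested endocytosis genes in each library (FPKM on a log axis), grouped by role, with EN points above EC points in each row. Cav1 is the highest of them, with 407 to 454 FPKM in EN and 504 to 514 FPKM in EC; the low genes Fcho1, Dnm3 and Sh3gl2 are left out.

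Caveolins form the coat of caveolae. Cav1, which encodes the main structural caveolin (Rnor_6.0 chromosome 4, 44597123 to 44630200, plus strand), was the highest member and ranked 121 of all gene models by mean FPKM. It had 407, 411 and 454 FPKM in EN replicates 1 to 3, against 510.3, 514 and 504 FPKM in EC replicates 1 to 3. Every EN library was below every EC library, and EN replicate 3 was the closest to EC. The means were 424 ± 25.8 FPKM in EN and 509.6 ± 5.10 in EC (SD, n = 3 each). The log2 change was -0.27 (SE 0.048, limma adjusted p = 0.0190), and the adjusted p was 0.0632 to 0.0759 in the 4 fits without EC replicate 2 or 3 or EN replicate 1 or 2.

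Cav2, whose product joins caveolin 1 in hetero-oligomers, lies upstream of Cav1 on the same strand (chromosome 4, 44573264 to 44580638). It had 83.0, 88.6 and 89.4 FPKM in EN, against 105.2, 114 and 118 FPKM in EC. The EN values all lay below the EC values. The means were 87.0 ± 3.49 FPKM in EN and 112 ± 6.36 in EC (SD, n = 3 each), and the log2 change was -0.36 (SE 0.053, limma adjusted p = 0.0103; 0.0505 without EC replicate 2). The ratio of Cav2 to Cav1 was 0.204, 0.216 and 0.197 in EN, against 0.206, 0.222 and 0.233 in EC. These ratios overlapped between the groups.

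The promoters of these 2 neighbouring genes are shown because both genes were lower, and those of Cltb and Hip1r because they had the largest log2 changes of the higher members. The windows run from 250 bases before to 50 bases after the RefSeq start on GRCr8, an assembly other than that of the expression table, and a window was found for 38 of the 39 members. Capitals mark matches, on either strand, to 6 short motifs. The GC box was searched for as GGGCGG and the box of the nuclear factor Y family as CCAAT. The core promoter box was searched for as TATAAA. The element of the AP-1 factors was searched for as TGACTCA and the cyclic AMP response element as TGACGTCA. The last, a sterol regulatory element, was searched for as TCACNCCAC. No motif contains another. The Cav2 window is chr4:46582431-46582730 (plus strand), the Cav1 window chr4:46606288-46606587 (plus strand), the Cltb window chr17:10006465-10006764 (plus strand) and the Hip1r window chr12:38279605-38279904 (minus strand).
Cav2: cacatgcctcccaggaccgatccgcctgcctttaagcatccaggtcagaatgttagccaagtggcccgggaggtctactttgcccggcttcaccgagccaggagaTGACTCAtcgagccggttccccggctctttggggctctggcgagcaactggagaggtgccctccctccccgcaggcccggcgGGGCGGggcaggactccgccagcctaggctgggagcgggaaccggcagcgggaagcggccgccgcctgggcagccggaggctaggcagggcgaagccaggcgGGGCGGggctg
Cav1: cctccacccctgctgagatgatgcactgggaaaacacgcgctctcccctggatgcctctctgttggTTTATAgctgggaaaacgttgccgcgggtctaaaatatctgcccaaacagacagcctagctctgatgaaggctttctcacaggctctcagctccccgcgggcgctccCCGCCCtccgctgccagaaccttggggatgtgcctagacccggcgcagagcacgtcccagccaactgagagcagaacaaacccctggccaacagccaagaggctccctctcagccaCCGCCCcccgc
Cltb: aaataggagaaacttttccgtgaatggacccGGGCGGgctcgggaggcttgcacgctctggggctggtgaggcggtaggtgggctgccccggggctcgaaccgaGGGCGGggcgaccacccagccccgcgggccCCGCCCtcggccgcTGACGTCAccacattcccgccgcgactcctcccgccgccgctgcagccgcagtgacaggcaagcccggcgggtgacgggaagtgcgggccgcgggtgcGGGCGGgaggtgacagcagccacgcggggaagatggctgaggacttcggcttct
Hip1r: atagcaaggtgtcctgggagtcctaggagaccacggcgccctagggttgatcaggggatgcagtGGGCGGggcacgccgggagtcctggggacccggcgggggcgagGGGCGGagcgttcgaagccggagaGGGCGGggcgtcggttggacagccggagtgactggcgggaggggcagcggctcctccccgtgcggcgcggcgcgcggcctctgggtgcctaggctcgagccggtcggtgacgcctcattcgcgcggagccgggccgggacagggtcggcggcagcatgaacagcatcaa

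The Cav2 window held 2 GC boxes and 1 AP-1 match, and the Cav1 window 2 GC boxes and 1 TATA box match. A second Cav1 start in RefSeq had a window with no match to any of the 6 motifs. The Cltb window held 4 GC boxes and 1 cyclic AMP element, and the Hip1r window 3 GC boxes. Among members, 32 of 38 had a GC box, against 33.1% of all 33469 windows, 1 had an AP-1 match against 4.63%, 3 a cyclic AMP element against 1.83%, 11 a CCAAT box against 37.5%, and 2 a TATA box against 14.2%. The sterol element letters were in the windows of 2 of 38 members, against 1.12% of all windows. Of the 8 members past the test, 8 had a GC box, 2 a TATA box, 1 a CCAAT box, 1 an AP-1 match, 1 a cyclic AMP element and 0 the sterol element. These are letter matches in short windows and show no binding. The 2 kinds of share are also unlike. A member counted if any of its windows matched, while the share of all windows counts single windows of all genes, whatever their expression. The windows shown were 70.3% (Cav2), 61.7% (Cav1), 72.3% (Cltb) and 73.0% (Hip1r) GC, against a median of 51.7% for all windows.

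**Figure D2:**
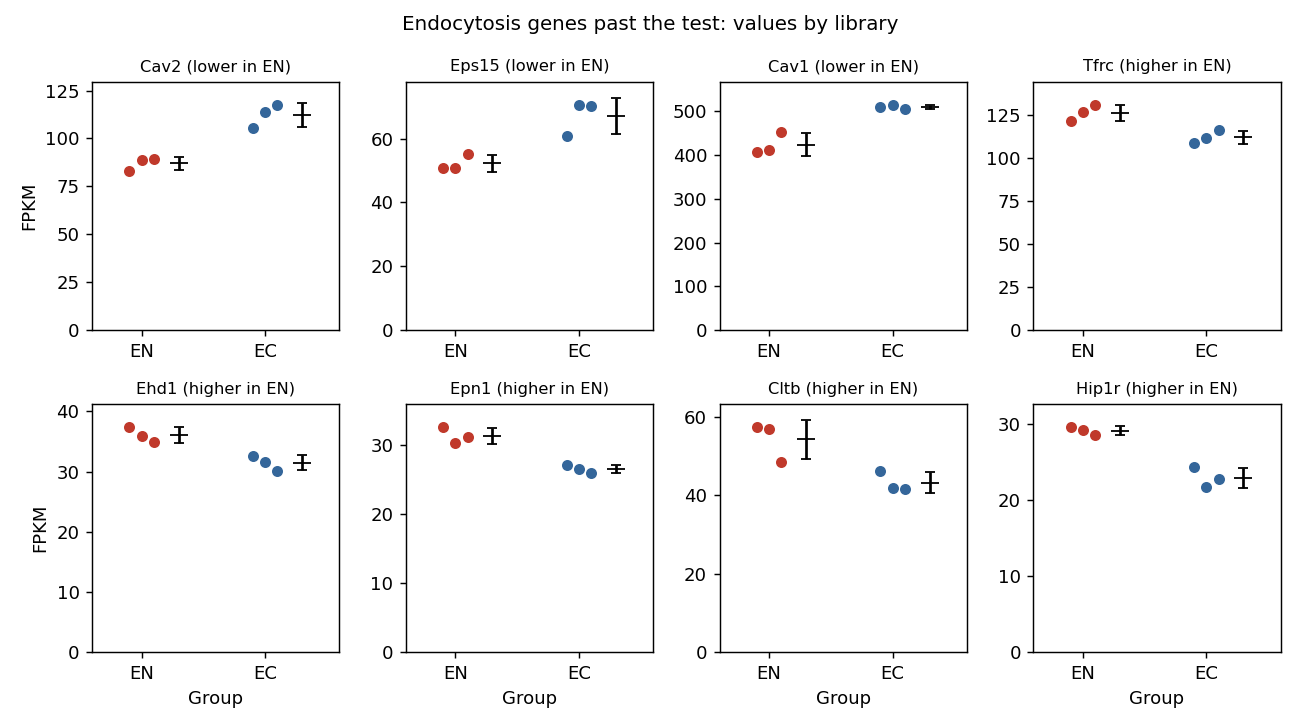
FPKM in each library for the 8 endocytosis genes past the test (limma, adjusted p under 0.05), with EN left of EC, an axis from 0, points for libraries and black marks for the mean ± SD (n = 3 each). In each panel the EN and EC points do not overlap; Cav2, Eps15 and Cav1 are lower in EN and the other 5 are higher.

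Of the 5 genes that act at the caveolar neck, 1 was higher and 4 did not pass. Ehd1, which encodes an ATPase that acts mainly in recycling from endosomes, had 37.4, 35.9 and 34.9 FPKM in EN, against 32.6, 31.7 and 30.2 FPKM in EC. The EN libraries were all above the EC libraries. Its log2 change was 0.19 (SE 0.047, limma adjusted p = 0.0415), and the adjusted p was 0.118 to 0.125 in the 4 fits without EC replicate 2 or 3 or EN replicate 1 or 2. Ehd2, whose product holds caveolae at the membrane, had 53.6, 52.2 and 54.1 FPKM in EN and 51.2, 48.2 and 47.5 FPKM in EC. These groups did not overlap either, but the log2 change of 0.12 (95% interval 0.02 to 0.22) did not pass (adjusted p = 0.0965). Pacsin2 and Pacsin3, membrane-bending F-BAR proteins of caveolae, had log2 changes of 0.08 and 0.31, and Ehd4 of 0.06; none of the 3 passed. Pacsin2 had 35.4, 36.2 and 38.3 FPKM in EN and 35.3, 35.1 and 33.2 FPKM in EC, which did not overlap although EN replicate 1 and EC replicate 1 were nearly equal. Pacsin3 varied widely, with 26.4, 24.4 and 19.7 FPKM in EN and 22.3, 16.5 and 17.7 FPKM in EC, and its 95% interval ran from -0.01 to 0.63.

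Markers of other cell types that can carry caveolae were read beside these genes. Of 9 tested Schwann and glial markers, 6 were lower, 1 was higher and 2 were not past the test. Of all tested genes, which reach down to 1 FPKM, 7.14% were lower and 7.24% higher. The 10 Schwann and glial markers on the list summed to 419 to 451 FPKM in EN and 476 to 484 in EC. Their part in the caveolin result was not tested, and in bulk RNA fewer cells of a type and less RNA per cell cannot be told apart. Endothelial cells, the source of the exosomes, are rich in caveolin 1. The 6 endothelial markers in the table summed to 3.05 to 3.43 FPKM in EN and 3.01 to 3.62 FPKM in EC, most of it from Tie1 (mean of 1.73 FPKM over the 6 libraries) and Tek (1.24 FPKM). Cldn5 was at 0 in every library, and Kdr and Vwf were below 0.05 FPKM. Fibroblast markers summed to 71.9 to 75.2 FPKM in EN and 73.7 to 77.1 in EC, most of it from Pdgfra, with Lum at 0 in every library.

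Of the 3 clathrin chain genes, 1 was higher and 2 did not pass. Cltb, which encodes light chain B (chromosome 17, 10537365 to 10554989), had 57.4, 56.8 and 48.6 FPKM in EN, against 46.2, 41.7 and 41.6 FPKM in EC. Its EN libraries were all above its EC libraries, but EN replicate 3 was nearer to EC replicate 1 than to the other EN libraries. Its log2 change was 0.32 (SE 0.076, limma adjusted p = 0.0364), and the adjusted p was 0.109 to 0.119 in the 4 fits without EC replicate 2 or 3 or EN replicate 1 or 2. The Cltb model is short, at 1047 bases, and with each library's trend with gene length removed the log2 change was 0.29 (adjusted p = 0.0313).

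Clta, the gene of light chain A, had 266, 259 and 267 FPKM in EN and 256, 253 and 229 FPKM in EC. EN and EC did not overlap, and the log2 change of 0.10 (95% interval -0.01 to 0.22) did not pass (limma adjusted p = 0.200). The heavy chain gene Cltc had 170.1, 179 and 204 FPKM in EN and 199, 221 and 217 FPKM in EC. Here EN replicate 3 was above EC replicate 1, and the log2 change of -0.20 (95% interval -0.38 to -0.03) did not pass (adjusted p = 0.107). Without EN replicate 3 it did (-0.28, adjusted p = 0.0279), as it did with voom on whole reads (-0.18, adjusted p = 0.0403).

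Since each clathrin leg pairs a heavy chain with a light chain, the per-length levels were set against each other. Summed light chain FPKM over heavy chain FPKM was 1.90, 1.77 and 1.55 in EN, against 1.52, 1.34 and 1.25 in EC. The EN ratios were all above the EC ratios, with EN replicate 3 and EC replicate 1 close together. Light chain B made up 17.7%, 18.0% and 15.4% of light chain FPKM in EN, against 15.3%, 14.2% and 15.3% in EC. That share also separated the groups, by as little as 15.4% against 15.3%. No test was made on these ratios. The light chain models are short (1171 bases for Clta, 1047 for Cltb) and the Cltc model is long (6069 bases). Short models stood higher relative to long ones in EN replicates 1 and 2 than in any EC library. With each library's trend with gene length removed, the log2 changes were 0.08 for Clta, 0.29 for Cltb and -0.18 for Cltc. What part that trend had in the ratios was not tested.

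AP2 is the main adaptor of the plasma membrane. None of its 5 tested genes passed (limma), none had an unadjusted p under 0.05 and none passed with voom on whole reads. Ap2m1, the gene of the cargo-reading mu subunit and the second highest member, had 293, 300.2 and 301 FPKM in EN and 317, 311 and 308 FPKM in EC. EN was below EC in each library, yet the difference was small, with a log2 change of -0.07 (95% interval -0.14 to 0.01, adjusted p = 0.200). The alpha subunit genes Ap2a1 and Ap2a2 had log2 changes of -0.01 and -0.03, with 95% intervals of -0.10 to 0.07 and -0.17 to 0.12. Ap2a1 made up 46.5 ± 2.42% of alpha subunit FPKM in EN and 46.3 ± 0.401% in EC (SD, n = 3 each). The sigma subunit gene Ap2s1 had 79.9, 85.8 and 81.8 FPKM in EN and 79.4, 82.6 and 78.4 FPKM in EC. The groups overlapped, and the beta subunit gene Ap2b1 averaged 24.3 ± 2.97 FPKM in EN and 23.8 ± 1.57 in EC (SD, n = 3 each). Reads of Ap2b1 may be divided, since unplaced models annotated as the same product are in the table. The higher of them had 1.36, 40.2 and 2.08 FPKM in EN and 2.08, 25.0 and 27.6 FPKM in EC.

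Adaptors that bring cargo or actin to the coat held 2 genes that were higher. Hip1r, whose product joins clathrin light chains to actin (chromosome 12, 38024519 to 38053085), had 29.7, 29.3 and 28.5 FPKM in EN, against 24.4, 21.7 and 22.7 FPKM in EC. The groups were well apart. Its log2 change of 0.33 (SE 0.052, limma adjusted p = 0.0127) was the largest increase among members past the test, and the adjusted p was 0.0504 to 0.0560 in the 4 fits without EC replicate 2 or 3 or EN replicate 1 or 2. The paralog Hip1 had 24.1, 23.4 and 24.9 FPKM in EN and 24.4, 24.7 and 23.6 FPKM in EC, with a log2 change of -0.0058 (95% interval -0.11 to 0.10). Hip1r over Hip1 was 1.23, 1.25 and 1.15 in EN, against 1.00, 0.879 and 0.964 in EC.

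Epn1 encodes epsin 1, an adaptor for ubiquitin-tagged cargo that also bends membrane (chromosome 1, 72294153 to 72311856). It had 32.6, 30.3 and 31.1 FPKM in EN, against 27.2, 26.5 and 25.9 FPKM in EC. No values overlapped, and the log2 change was 0.23 (SE 0.045, limma adjusted p = 0.0213; 0.0600 to 0.0818 in the 4 fits without EC replicate 2 or 3 or EN replicate 1 or 2). The paralog Epn2 had 34.5, 36.0 and 33.2 FPKM in EN and 32.4, 31.9 and 31.7 FPKM in EC. These also did not overlap, but the log2 change of 0.11 (95% interval 0.01 to 0.21) did not pass (adjusted p = 0.128).

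Picalm, the highest adaptor gene of the group, whose product recruits clathrin and sorts SNAREs, had 101, 108 and 116 FPKM in EN and 115, 123 and 127 FPKM in EC. EN replicate 3 was above EC replicate 1. The log2 change of -0.17 (95% interval -0.31 to -0.02) did not pass (limma adjusted p = 0.112), and without EN replicate 3 it did (-0.22, adjusted p = 0.0472). Dab2, an adaptor for endocytic receptors, averaged 86.9 ± 1.88 FPKM in EN and 83.0 ± 3.78 in EC (SD, n = 3 each), with overlap.

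Among pit initiation and scaffold genes, Eps15 was lower. It encodes an early scaffold that binds AP2 (chromosome 5, 128923934 to 129022054), and it had 50.8, 50.7 and 55.2 FPKM in EN, against 60.7, 70.6 and 70.2 FPKM in EC. EC replicate 1 was the EC library closest to EN, and the groups did not overlap. The log2 change was -0.35 (SE 0.069, limma adjusted p = 0.0218; 0.0750 to 0.0823 in the 4 fits without EC replicate 2 or 3 or EN replicate 1 or 2).

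The paralog Eps15l1 had 18.0, 16.5 and 16.4 FPKM in EN and 16.4, 14.3 and 14.7 FPKM in EC. Its log2 change of 0.15 (95% interval -0.00047 to 0.31) did not pass (limma adjusted p = 0.156). Eps15 over Eps15l1 was 2.83, 3.07 and 3.37 in EN, against 3.70, 4.93 and 4.77 in EC. Each EN ratio was below each EC ratio, and this ratio was not tested. The intersectin genes Itsn1 and Itsn2, scaffolds that bring in dynamin, had log2 changes of -0.0025 and -0.07. Itsn2 had 23.0, 22.9 and 23.1 FPKM in EN and 23.3, 23.9 and 25.2 FPKM in EC, a small gap without overlap. Fcho2, a membrane-bending initiator, averaged 10.6 ± 0.401 FPKM in EN and 12.2 ± 1.58 in EC (SD, n = 3 each). Its paralog Fcho1 was under the expression minimum, at 0.379, 0.238 and 0.0763 FPKM in EN and 0.226, 0.105 and 0.275 FPKM in EC.

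Scission and membrane-bending genes showed no call. None of 4 tested genes passed (limma), and none had an unadjusted p under 0.05 or passed with voom. Dnm2, the widely expressed dynamin, had 36.8, 38.3 and 34.7 FPKM in EN and 32.9, 36.5 and 33.9 FPKM in EC, with overlap and a log2 change of 0.09 (95% interval -0.05 to 0.22). Tmed1, at 22.6 FPKM on average, overlaps Dnm2 on the opposite strand, and whether counting used strand is not given in the sources used here. Dnm1, the neuronal dynamin, averaged 16.8 ± 0.682 FPKM in EN and 16.9 ± 0.919 in EC (SD, n = 3 each). Dnm2 made up 67.8 ± 1.19% of dynamin FPKM in EN and 66.1 ± 1.82% in EC. Dnm3 was under the minimum, at 0.579, 0.447 and 0.641 FPKM in EN and 0.609, 0.736 and 0.859 FPKM in EC.

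Bin1, the gene of amphiphysin 2, averaged 39.3 ± 0.480 FPKM in EN and 38.1 ± 1.78 in EC (SD, n = 3 each). Sh3gl1, which encodes endophilin A2, had 44.9, 45.1 and 37.1 FPKM in EN and 40.4, 33.5 and 35.0 FPKM in EC. EN replicate 3 fell within the EC range, and the log2 change of 0.22 (95% interval -0.01 to 0.44) did not pass. Sh3gl2, the gene of the brain-enriched endophilin A1, had no read in any EN library, which allows up to 0.0373 FPKM over the group (3 reads, counting error only). In EC it had 2, 3 and 0 reads, too few to compare. The synaptojanin genes Synj1 and Synj2, lipid phosphatases of uncoating, averaged 19.2 ± 1.07 and 20.3 ± 0.348 FPKM in EN, and 20.5 ± 0.818 and 20.4 ± 0.815 in EC. Synj2 had 20.2, 20.6 and 19.9 FPKM in EN and 21.0, 19.5 and 20.7 FPKM in EC, with overlap. Neither gene passed (limma), had an unadjusted p under 0.05 or passed with voom.

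**Figure D3:**
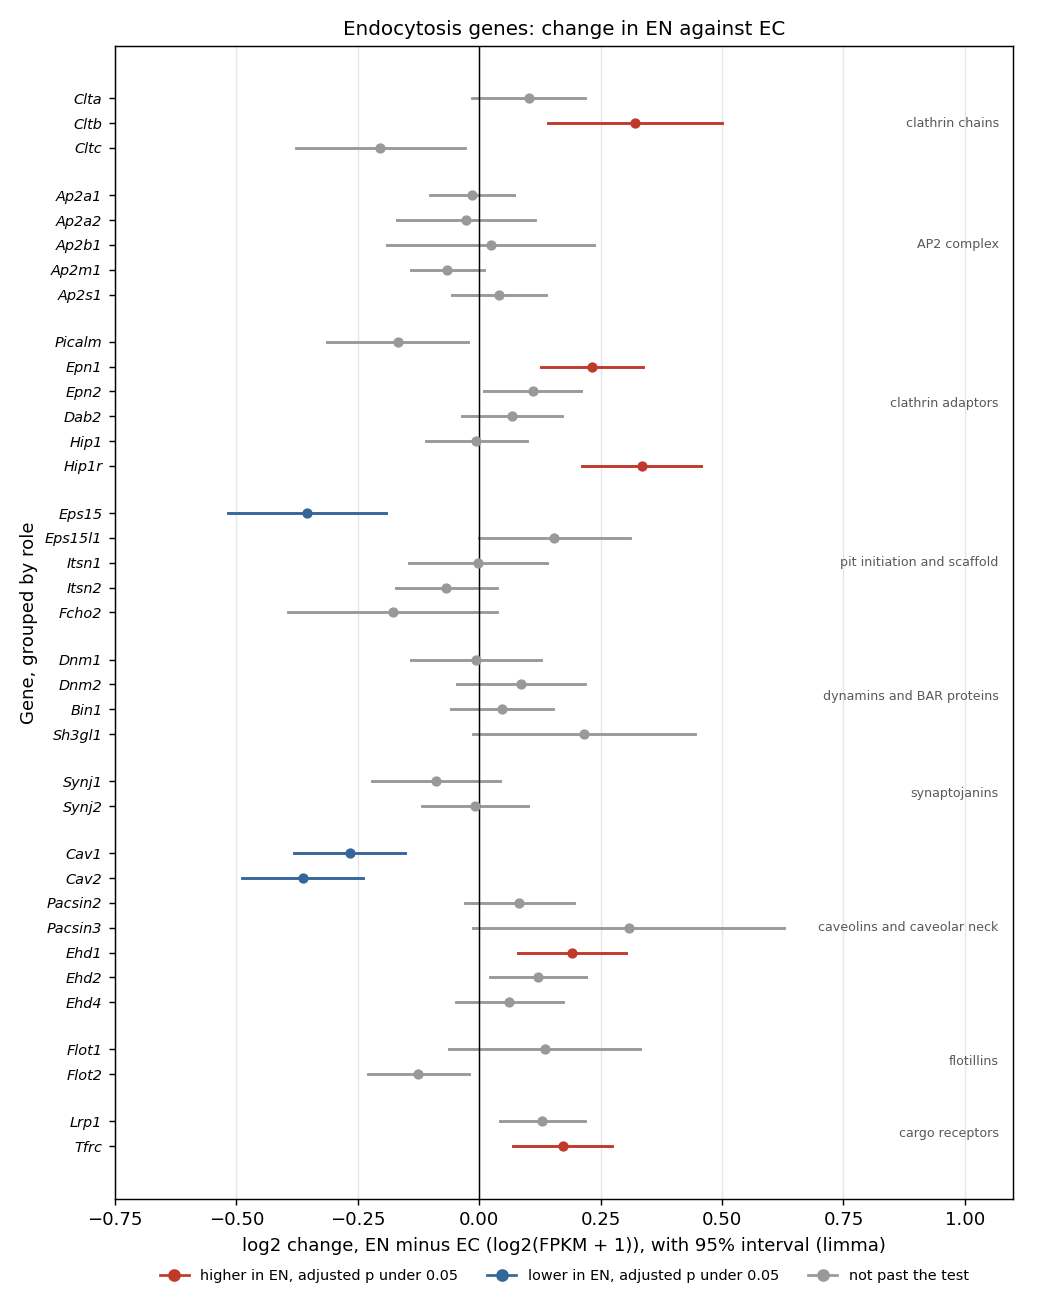
Log2 change of EN minus EC on log2(FPKM + 1) for the 36 tested endocytosis genes, grouped by role, with points for the estimate and lines for the 95% interval (limma, n = 3 each). Red marks the 5 genes higher in EN and blue the 3 lower past the test; the AP2 genes lie between -0.07 and 0.04.

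The flotillin genes did not pass (limma), nor with voom on whole reads, and 1 of the 2 had an unadjusted p under 0.05. That was Flot2, with 31.5, 29.8 and 29.8 FPKM in EN and 32.1, 34.2 and 33.3 FPKM in EC, a log2 change of -0.13 (95% interval -0.23 to -0.02, adjusted p = 0.0990). There was no overlap, though EN replicate 1 and EC replicate 1 were close. Flot1 had 26.2, 25.0 and 22.7 FPKM in EN and 24.8, 22.1 and 20.3 FPKM in EC, with overlap and a log2 change of 0.13 (95% interval -0.06 to 0.33).

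Both cargo receptor genes had higher means in EN, and 1 passed. Tfrc, the transferrin receptor that carries iron in through clathrin-coated pits (chromosome 11, 71397383 to 71419223), had 121, 127 and 131 FPKM in EN, against 108, 111 and 116 FPKM in EC. The groups did not overlap, and the gap between EN replicate 1 and EC replicate 3 was smaller than the range within EN. Its log2 change was 0.17 (SE 0.043, limma adjusted p = 0.0428), a call that was lost without any 1 of the 6 libraries (adjusted p of 0.0664 to 0.131). Lrp1, a large receptor for many ligands, had 90.0, 87.7 and 88.6 FPKM in EN and 81.1, 78.5 and 83.6 FPKM in EC. The log2 change of 0.13 (95% interval 0.04 to 0.22) did not pass (adjusted p = 0.0585), and with voom on whole reads it did (adjusted p = 0.0122).

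Other genes of the pathway were read from 8 lists with 98 genes, of which 97 were in the table and 86 were tested. Higher genes numbered 5 and lower genes 13, while 68 did not pass. That is 20.9% past the test, against 14.4% of all tested genes (7.24% higher and 7.14% lower). Of the 86, 66 averaged at least 10 FPKM, whereas all tested genes reach down to 1 FPKM. With a minimum mean of 5 FPKM, 2022 of 9204 genes passed, 1020 of them higher. In that fit 7 of these other endocytosis genes were higher and 14 lower. The median log2 change of the 86 was -0.02. The counts of 5 and 13 rested on the same libraries as those of the members. In 4 fits, without EC replicates 2 and 3 and EN replicates 1 and 2 in turn, 0 were higher (limma). Lower genes there numbered 2, 2, 2 and 1. At an unadjusted p under 0.05, those 4 fits had 7, 7, 8 and 7 higher and 21, 18, 18 and 19 lower. Without EC replicate 1 there were 3 higher and 11 lower, and without EN replicate 3 there were 7 and 13. Scarb1 kept its call in all 6 such fits, and each of the others named below lost it in 4 or more.

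Of 5 tested caveolar genes outside the members, Cavin3 was higher and 4 did not pass, while the members Cav1 and Cav2 were lower. The third caveolin gene, Cav3, was among the 4, with a log2 change of -0.06 (named after its value was seen). Cavin3, an adaptor of the cavin coat, had 276, 241 and 216 FPKM in EN, against 199, 184 and 171 FPKM in EC. There was no overlap, and the spread within each group was wide. The log2 change was 0.40 (SE 0.095, limma adjusted p = 0.0361). Cavin1, the cavin that caveolae need, had 281, 274 and 285 FPKM in EN and 277, 268 and 259 FPKM in EC, with overlap and a log2 change of 0.06 (named after its value was seen). Cavin2 and Cavin4 were under the minimum. The Cavin3 model is short, at 1282 bases. Short models stood higher relative to long ones in EN replicates 1 and 2 than in any EC library. What part this had in the Cavin3 change was not tested.

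Of 7 uncoating and coat kinase genes, Necap2, an AP2 partner, was higher by 0.26 on the log2 scale (limma adjusted p = 0.0430) and 6 did not pass. Of 13 other adaptor and accessory genes, Arrb1, the gene of beta-arrestin 1, was higher, with 28.7 ± 1.90 FPKM in EN and 24.3 ± 0.317 in EC (SD, n = 3 each; adjusted p = 0.0351), and 12 did not pass. Of 11 other membrane curvature genes, Sh3glb1, which encodes endophilin B1, was lower, with 82.1 ± 3.60 FPKM in EN and 98.2 ± 2.55 in EC (adjusted p = 0.0167), and 10 did not pass. Of 7 phosphoinositide enzymes, Pip5k1c, whose product makes the lipid that recruits AP2, had 22.6 ± 0.242 FPKM in EN and 17.7 ± 1.34 in EC (adjusted p = 0.0172), and so was higher. Pik3c2a, a lipid kinase that acts as pits mature, was lower, with 14.6 ± 0.483 FPKM in EN and 18.3 ± 1.70 in EC (adjusted p = 0.0370), and 5 did not pass.

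Actin genes of the pit were lower in 4 of 9 cases, none was higher and 5 did not pass (limma). Of all tested genes, which reach down to 1 FPKM, 7.14% were lower, while all 9 actin genes averaged at least 10 FPKM. Arpc3 and Arpc2, subunits of the actin-branching Arp2/3 complex, had 157 ± 4.79 and 147 ± 2.92 FPKM in EN, against 189 ± 10.4 and 163 ± 4.22 in EC (SD, n = 3 each). Actr3, its Arp3 subunit, averaged 204 ± 9.14 FPKM in EN and 235 ± 4.54 in EC. The fourth was Wasl, which activates that complex, with a log2 change of -0.20 (named after its value was seen). Subunits of the same complex did not all fall: Arpc1b, Actr2 and Arpc4 had log2 changes of 0.09, 0.08 and 0.19 and did not pass, nor did Arpc5 at -0.11.

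Early and recycling endosome genes were lower in 5 of 24 cases, none was higher and 19 did not pass (limma). Of all tested genes, which reach down to 1 FPKM, 7.14% were lower and 7.24% higher, while 20 of these 24 averaged at least 10 FPKM. Vps29, a retromer subunit, had 69.0, 71.3 and 68.3 FPKM in EN, against 79.9, 79.0 and 80.0 FPKM in EC (log2 change -0.19, adjusted p = 0.0178). Snx2, a sorting nexin that acts with retromer, averaged 54.5 ± 0.728 FPKM in EN and 64.2 ± 2.71 in EC (SD, n = 3 each). Appl1, an adaptor of early endosomes, averaged 28.0 ± 1.40 FPKM in EN and 32.4 ± 0.486 in EC. The remaining pair, Vps35 and Snx1, also belongs to the retromer and its sorting nexins, at -0.20 and -0.16 on the log2 scale; both are named with their values known. Vps26a, another retromer subunit, had a log2 change of -0.09 and did not pass. The Rab5 genes Rab5a, Rab5b and Rab5c, which mark early endosomes, had log2 changes of -0.01, -0.07 and 0.17 and did not pass.

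Of 10 other endocytic receptor genes tested, 1 was higher (limma), 2 were lower and the other 7 were not past the test. Scarb1, the receptor for high-density lipoprotein, had 42.1, 41.5 and 42.8 FPKM in EN, against 54.3, 54.8 and 53.9 FPKM in EC. The groups were far apart relative to their spread (log2 change -0.36, SE 0.034, adjusted p = 0.00317), and this call held without each single library (highest adjusted p = 0.0263). Igf2r, which carries lysosomal enzymes and insulin-like growth factor 2, was higher, at 88.7 ± 0.0766 FPKM in EN and 80.6 ± 1.02 in EC (SD, n = 3 each; adjusted p = 0.0332).

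**Figure D4:**
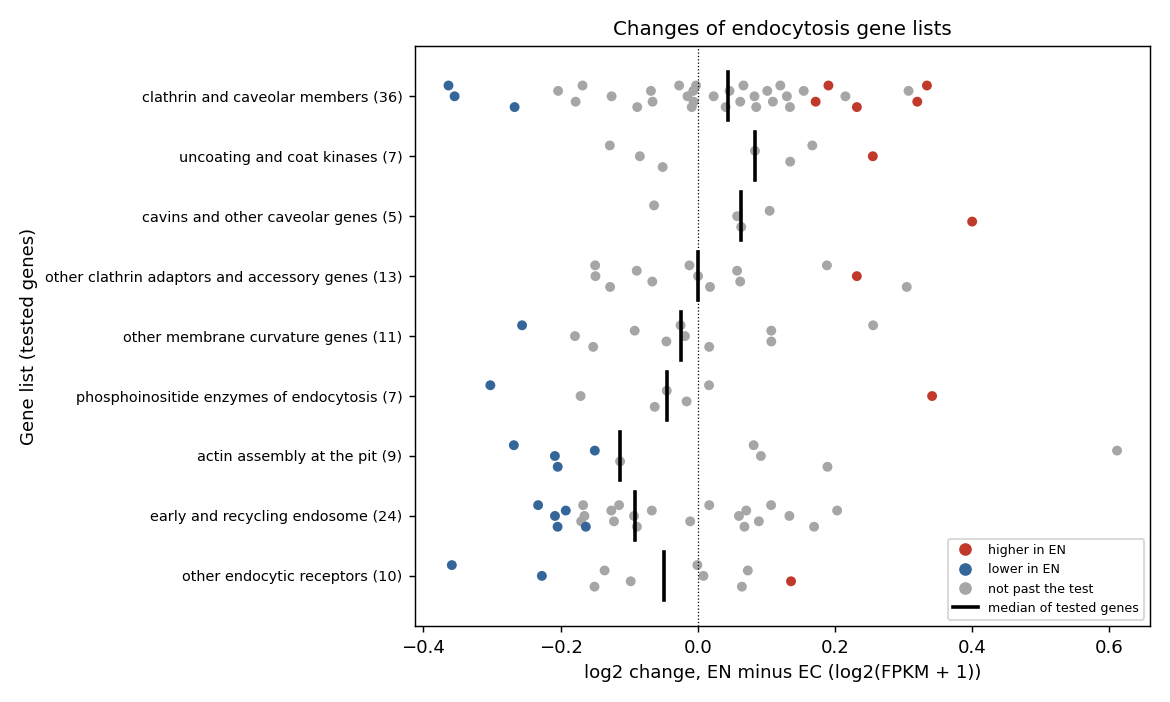
Log2 change of EN minus EC for the 36 tested members and the tested genes of the 8 other endocytosis lists, with a point for each gene, red and blue for genes higher and lower in EN past the test (limma), and a black bar for the list median. The median is 0.04 for the members, -0.11 for actin genes and -0.09 for endosome genes. The grey point at 0.61 is Cttn, which varied from 8.37 to 42.1 FPKM among EN libraries. The Cttn symbol has 2 rows, of which only the row with the highest mean was used. Whether reads were divided between them was not tested.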

How the data were processed

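Per the labels' protocols, the RNA was a Trizol extract and the library kit Illumina's TruSeq RNA. The authors deposited 1 table of FPKM per gene model and library, with symbols, coordinates and lengths. The submitters' processing notes name HISAT2 2.0.5 and Rnor_6.0; for the counting tool, annotation release, strand setting and filters, nothing was given in the sources used here. The deposited FPKM values gave back whole reads in every library (100% of non-zero values, within 0.001 of a whole number), and these were used for depth and for 1 alternative. Intervals and limits from reads cover counting error only. No library was a copy of another: the chi-square of reads per degree of freedom was 3.82 to 8.98 for pairs of 1 group and 10.6 to 23.4 across groups.

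Values of log2(FPKM + 1) were tested two-sided with limma 3.58.1 (R 4.3.3), its prior variance following mean level and the model holding group alone. The 12198 genes averaging 1 FPKM or more were fitted, with p-values Benjamini-Hochberg adjusted over all of them at 0.05. The script was tested on simulated data. Where a symbol had several rows, the row with the highest mean was used. The text gives all members by role, with values for each library for those past the test and the highest or non-overlapping of each role, and up to 3 genes past the test with the smallest adjusted p of each other list. Members, lists and markers were chosen with earlier results of these data known. Alternatives were a pseudocount of 0.1, no filter, a mean of at least 5 FPKM, median centring, quantile normalization, the replicate block, voom on whole reads and each library left out; removal of the trend with gene length (lowess, span 0.5) was added after the data were seen. The 95% intervals come from limma. Promoter sequences are RefSeq's for GRCr8. The values of 1 gene of the receptor list are not reported here.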

Additional observations from a re-analysis of the deposited data

How the results depend on the processing

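With a pseudocount of 0.1, a mean of at least 5 FPKM, median centring, quantile normalization, voom or the length trend removed, the 8 members past the test kept their call and direction. Without a filter the adjustment ran over 20495 genes, and 866 genes passed, with 2 members higher and 1 lower and 2 other endocytosis genes higher and 6 lower. With voom 8 other endocytosis genes were higher. With 1 library left out, the count of all genes ran from 338 to 2059, of higher members from 0 to 4, of lower members from 0 to 5, of other endocytosis genes higher from 0 to 7 and lower from 1 to 13; the cause was not tested.

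Signs turned for 7 members that did not pass. With voom the log2 change was 0.0098 for Ap2a1, 0.017 for Hip1, 0.021 for Itsn1, 0.016 for Dnm1 and 0.015 for Synj2. With the length trend removed it was 0.018 for Hip1, 0.020 for Itsn1, 0.0079 for Dnm1 and 0.013 for Synj2, and with median centring 0.00032 for Itsn1. With 1 library left out it ran from -0.039 to 0.0021 for Ap2a1, -0.093 to 0.013 for Ap2a2, -0.070 to 0.088 for Ap2b1, -0.028 to 0.017 for Hip1, -0.035 to 0.049 for Itsn1, -0.037 to 0.035 for Dnm1 and -0.040 to 0.013 for Synj2.

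The replicate block gave 1907 genes past the test, with 5 members higher and 4 lower, the added one being Picalm (log2 change -0.17, adjusted p = 0.0334). Same-numbered libraries deviated from their group means with correlations of 0.088, -0.095 and -0.020, and 2 of 6 libraries correlated best with their own number, so the numbers were not taken as pairs. Depth was 15296193 reads or more in each library, and Sh3gl2, at 0 to 3 reads a library, was too low to compare.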

Other observations

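A gene model on chromosome 17 annotated as amphiphysin-like, LOC100910792, is in the table and was not counted as a member. It had 5.29, 5.07 and 12.0 FPKM in EN replicates 1 to 3 and 7.62, 6.98 and 5.66 FPKM in EC replicates 1 to 3. EN replicate 3 was above all other libraries, the groups overlapped, and the log2 change was 0.04 (limma adjusted p = 0.941).

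Pik3c2b, a phosphoinositide kinase gene with a mean just under 1 FPKM, had 1.15, 1.12 and 1.08 FPKM in EN and 0.890, 0.843 and 0.865 FPKM in EC. The groups did not overlap, and it was not tested. The levels of the clathrin and caveolar coats relative to each other were also read: Cav1 over Cltc, per length, was 2.39, 2.29 and 2.23 in EN and 2.57, 2.33 and 2.33 in EC, with overlap.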
